A study of Xenopus laevis with 6 samples.

Results

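The pancreas bud was compared with the liver bud of Xenopus laevis tadpoles on 4 of the 6 arrays of the series, 2 arrays of each organ. The arrays were chosen by their labels alone, and the 2 stomach bud arrays entered only the estimate of the spread between replicates. All 15491 probe sets of the array other than its controls were tested in both directions.

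Pancreas and liver arise as neighbouring outgrowths of the foregut endoderm, each wrapped in mesoderm. The exocrine cells of the pancreas make digestive enzymes and export them through ducts, and its endocrine cells secrete hormones such as insulin into the blood. Hepatocytes secrete most plasma proteins into the blood and carry out much of the body's intermediary metabolism, and the embryonic liver also hosts blood cells. Both organs are therefore secretory and share many transcription factors, and the question of the comparison is which genes set them apart at this stage.

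Buds were dissected from embryos at stage 42, the swimming tadpole after the dorsal and ventral pancreas buds have fused. Total RNA of each bud was hybridised to Affymetrix Xenopus laevis genome arrays, which measure a transcript with a set of short probes and report the brightness of the set as an intensity. The embryos carried no stated mutation, transgene or treatment, and the sex of the material is labelled as mixed. Each bud held endoderm and mesoderm together, the number of embryos pooled is not given, and the RNA came from 2 independent isolations, each of which supplied 1 array of every organ. The p-values therefore measure the spread between these 2 isolations. Because the buds are mixtures, fewer cells of a type and less RNA per cell cannot be told apart in any difference below.

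Each array had been scaled to a median intensity of 100, and between 11.88% and 13.72% of probe sets on an array read under 16. The deposited values carry no detection call, so a low reading is given as it stands. Replicates of an organ correlated at 0.955 for pancreas and 0.946 for liver over all probe sets on the log2 scale, and pancreas and liver of the same isolation at 0.889 and 0.888. Gene symbols came from the platform annotation. It gives 9304 probe sets a single symbol, which cover 7531 genes, and each gene is described below by the probe set with the highest mean over the 4 arrays. Xenopus laevis has a duplicated genome, and the endings .L and .S name the copies on its long and short chromosomes.

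The labels were borne out by the defining genes of the organs. The 12 measured acinar cell genes, which encode pancreatic enzymes, summed to 67430 and 44292 in the pancreas replicates against 431 and 653 in the liver replicates. The 9 measured hepatocyte genes summed to 55527 and 40812 in the liver replicates against 2095 and 1074 in the pancreas replicates. The 5 measured stomach and intestine genes summed to 75.4 and 514 in the pancreas replicates against 70.9 and 72.1 in the liver replicates, and 4 of them were brighter on the pancreas array of isolation 2 than on that of isolation 1. ctse.L, a gastric protease gene, read 323.2 against 33.74, atp4b.S, a subunit of the gastric proton pump, 96.08 against 5.1, sox2.L, a foregut transcription factor, 47.23 against 5.5, and ctse.S 23.56 against 3.63, while both liver replicates read 26.18 or lower for these 4. cdx1.S, an intestinal transcription factor, read 24.02 against 27.43. The part of such transcripts in the results was not tested.

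Across all probe sets, 969 differed between the organs at a Benjamini-Hochberg adjusted p under 0.05 in limma, a linear model that shares information on the spread across probe sets. Of these, 419 (2.7% of those tested) were higher in pancreas and 550 (3.55%) higher in liver. Counted as genes, 247 of 7531 (3.28%) were higher in pancreas and 300 (3.98%) higher in liver. All 547 had both arrays of 1 organ above both arrays of the other, which entails the same sign in each isolation. Over all genes, both pancreas arrays were above both liver arrays for 33.2% and the reverse held for 25.2%. Each array was scaled to the same median, which by itself holds the middle of the distribution in place. The median log2 difference of pancreas minus liver over all genes was 0.07, and 50% of genes lay between -0.36 and 0.45. Among all 15491 probe sets the difference was positive for 8311 and negative for 7180. These numbers, and the 3.28% and 3.98% of genes called, are the background for the counts of the lists below.

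Liver-enriched genes were more numerous at middling folds and pancreas-enriched genes at the extreme. Among the genes that passed, 157 were over 3-fold higher in pancreas and 241 over 3-fold higher in liver. Over 10-fold the numbers were 40 and 85, over 30-fold 24 and 29, and over 100-fold 13 and 7. The median fold was 3.9 for genes higher in pancreas and 5.17 for genes higher in liver, and the smallest fold that passed was 1.95. With 16 added to every intensity the counts over 100-fold were 7 and 2. The share of probe sets that passed grew with brightness, from 2.24% of those with a mean under 16 to 13.2% of those over 1000, where 108 were higher in liver and 47 higher in pancreas. The median spread between replicates fell over the same range from 0.824 to 0.176 on the log2 scale.

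The precision is limited by 2 arrays an organ. The smallest p that an exact permutation test gives for 2 arrays in each organ is 0.333, and every call therefore depends on the shared estimate of spread, and with any 1 pancreas or liver array left out between 105 and 334 probe sets still passed. A difference that did not pass is accordingly not shown to be absent, and 235 genes with a fold over 3 did not pass. For 2840 genes the 95% interval of the difference lay within a 2-fold change either way. A fit with an intensity trend in the variance is quoted beside some lists below. That fit passed more probe sets of every kind, 1050 of 15491 toward pancreas and 963 toward liver, so higher counts of a list under it are not particular to the list.

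**Figure D1:**
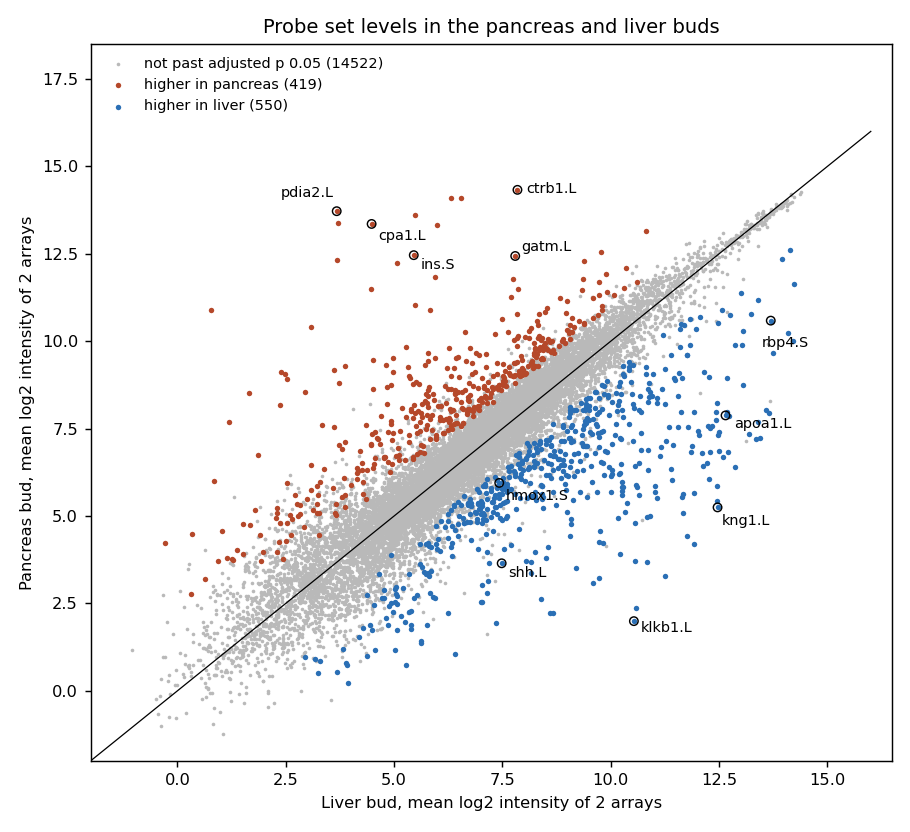
Each point is 1 of 15491 probe sets, with its mean log2 intensity over 2 liver arrays on the horizontal axis and over 2 pancreas arrays on the vertical axis, and the line marks equal levels. The 419 probe sets higher in pancreas are red, the 550 higher in liver blue, and the circled genes other than ctrb1.L and klkb1.L are described in the text.

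Digestive enzyme lists had the largest median differences toward pancreas among the 31 lists. Of 9 measured serine protease and protease inhibitor genes, 7 were higher in pancreas and none in liver, against 3.28% and 3.98% of all genes. Among the lipase, amylase, nuclease and chitinase genes, 6 of 9 were higher in pancreas and none in liver. The median log2 differences of these groups were 6.4 and 6.87, against 0.07 over all genes.

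Values are given below for replicate 1 and then replicate 2 of each organ. ctrl.L, a chymotrypsin-like protease gene, read 20983 and 14812 in pancreas and 70.93 and 89.02 in liver, a 222-fold difference (log2 7.79 ± 0.28 SE, adjusted p = 0.00307). ctrc.L, chymotrypsin C, read 22138 and 13653 in pancreas and 84.25 and 104.8 in liver, a 185-fold difference (log2 7.53 ± 0.32, adjusted p = 0.00351). cel.2.S, bile salt-activated lipase, read 16205 and 9785 in pancreas and 35.2 and 56.3 in liver, 283-fold apart (adjusted p = 0.00351). The pancreas readings of all 3 were near the top of the array's range on both arrays, replicate 1 was the higher one, and no liver array came near them. amy2b.S, pancreatic amylase, differed more than 3-fold between pancreas replicates, 8963 and 2559, with 38.21 and 29.7 in liver. Its fold was 142 (adjusted p = 0.0126), 76 without pancreas replicate 1 and 266 without pancreas replicate 2.

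The carboxypeptidase family, which trims amino acids from the ends of peptides, divided between the organs. Of 8 genes, 3 were higher in pancreas and 1 in liver. cpa1.L read 12738 and 8598 in pancreas and 25.17 and 19.83 in liver, 468-fold apart (log2 8.87 ± 0.30, adjusted p = 0.00307) and 273-fold with 16 added. cpb1.S read 2681 and 3152 in pancreas and 23.18 and 21.17 in liver, 131-fold apart and 76.6-fold with 16 added, and another 2 of its probe sets passed toward pancreas with differences of 10.11 and 5.08. The gene on the other side was cpn1.S, the catalytic subunit of a carboxypeptidase that circulates in plasma. It read 56.43 and 36.13 in pancreas and 437.2 and 266 in liver, so that liver was 7.55-fold higher (log2 -2.92 ± 0.35, adjusted p = 0.0164).

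Some enzyme genes did not pass. pnlip.L, pancreatic lipase, read 56.03 and 73.92 in pancreas and 68.77 and 67.27 in liver, and the replicates of the organs overlapped (log2 -0.08, adjusted p = 0.87). cela3b.L, an elastase gene, differed by 0.31 on the log2 scale (adjusted p = 0.558).

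Leading genes outside the enzyme families included pdia2.L, which encodes the protein disulfide isomerase of the pancreas. It read 16505 and 11004 in pancreas and 9.59 and 17.04 in liver, the largest difference among the probe sets that stand for the named genes, at 1054-fold (log2 10.04 ± 0.49, adjusted p = 0.00351) and 464-fold with 16 added. stxbp6.L, which encodes a protein that binds the membrane fusion machinery of secretory vesicles, read 2125 and 2059 in pancreas and 64.63 and 30.62 in liver, 47-fold apart (adjusted p = 0.00615). MGC64344, which the annotation names by a clone number only, read 15148 and 7656 in pancreas and 26.21 and 6.58 in liver. Its fold of 820 was 349 with 16 added, 1637 without liver replicate 1 and 411 without liver replicate 2. All 15 leading pancreas genes were separated from liver by more than an order of magnitude on each array, as the plot of leading genes shows. They were chosen for the largest differences on these same arrays, so a wide separation follows from the choice.

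**Figure D2:**
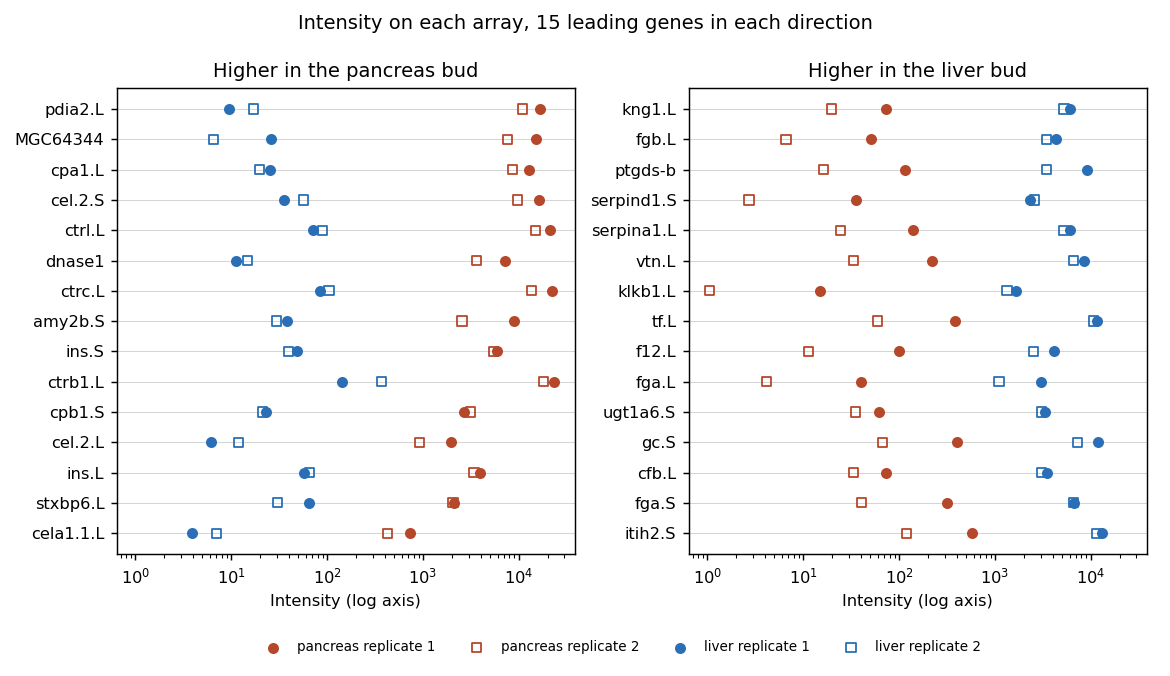
Intensity on a log axis for the 15 genes with the largest difference in each direction, chosen among those past the threshold, with pancreas arrays in red, liver arrays in blue, replicate 1 filled and replicate 2 open. In the right panel the pancreas replicate 1 reading lies above the replicate 2 reading for all 15 genes, while the liver replicates lie close together for most.

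Of 13 hormone and granule genes of endocrine cells, 5 were higher in pancreas and 1 in liver, against 3.28% and 3.98% of all genes. ins.S, 1 of 2 insulin genes, read 5865 and 5417 in pancreas and 48.56 and 39.59 in liver, 129-fold apart (log2 7.01 ± 0.46, adjusted p = 0.00553). ins.L read 3900 and 3407 in pancreas and 57.9 and 66.18 in liver, 58.9-fold apart (log2 5.88 ± 0.29, adjusted p = 0.00351). The pancreas replicates were much closer together for insulin than for amy2b.S or cel.2.S. pcsk2.L, the protease that cuts proinsulin, read 566.3 and 584.8 in pancreas and 9.12 and 16.42 in liver, 47-fold apart and 20.7-fold with 16 added (adjusted p = 0.00474). The granin gene scg3.L read 84.06 and 49.75 in pancreas and under 2 on both liver arrays (1.84 and 1.77). The 1 gene of the list that was higher in liver was pam.L, which amidates peptides in many secretory cells. It read 27.07 and 18.79 in pancreas and 167.2 and 115.2 in liver, 6.16-fold higher in liver (adjusted p = 0.0158) and 4.01-fold with 16 added. Another of its probe sets passed toward liver at -1.81, while the other copy, pam.S, differed by -0.49 and did not pass.

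Of the 5 amino acid genes higher in pancreas, 3 belong to creatine synthesis. gatm.L, which makes the precursor of creatine from arginine and glycine, read 6384 and 4815 in pancreas and 220 and 224.3 in liver, 25-fold apart (log2 4.64 ± 0.22, adjusted p = 0.00351). A second gatm.L probe set differed by -0.65 and did not pass. gamt, which completes the synthesis, was higher in pancreas as both copies. gamt.S read 1101 and 724.3 in pancreas and 99.5 and 117.7 in liver, 8.25-fold apart (adjusted p = 0.00949), and gamt.L was 4.42-fold higher (adjusted p = 0.0249).

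The other two were genes of histidine breakdown. hal.2.S, the first enzyme of that pathway, read 6900 and 5249 in pancreas and 1138 and 671 in liver, 6.89-fold apart (adjusted p = 0.0177). amdhd1.L, a later enzyme, was 2.6-fold higher (adjusted p = 0.0367, and 0.0529 with the isolation as a block). The remaining called members of the amino acid list were higher in liver. The counts of the list were even, with 5 genes of 34 in each direction (8 with an intensity trend) and a median of 0.12. The count toward pancreas includes gatm.L and both gamt copies, which belong to creatine synthesis and not to breakdown. hao1.L, which oxidises glycolate, read 42.16 and 64.57 in pancreas and 1246 and 1222 in liver, 23.7-fold higher in liver (log2 -4.56 ± 0.33, adjusted p = 0.00704). fah.L, the last enzyme of tyrosine breakdown, read 168.9 and 117.8 in pancreas and 2751 and 2230 in liver, 17.6-fold higher in liver (adjusted p = 0.00879). agxt.L, which converts glyoxylate to glycine, read 2374 and 1285 in pancreas and 11468 and 8110 in liver, with adjusted p = 0.0387, and 0.061 with the isolation as a block.

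Genes of purine synthesis formed a group that was noticed among the high pancreas genes and then listed in full, so their counts describe these arrays only. Of 12 measured genes, 5 were higher in pancreas, none in liver, and 11 had a positive difference. Over all genes 3.28% were higher in pancreas, and 8311 of all 15491 probe sets had a positive difference. atic.L, which carries out the final steps to the first purine nucleotide, read 1941 and 1614 in pancreas and 175.9 and 297.7 in liver, 7.74-fold apart (adjusted p = 0.0127). ppat.L, the committed first step, read 421.6 and 478.7 in pancreas and 91.59 and 123.9 in liver, 4.22-fold apart (adjusted p = 0.0137). impdh1.L, the entry to guanine nucleotides, read 1920 and 1623 in pancreas and 291 and 358.2 in liver, 5.47-fold apart (adjusted p = 0.00949). Both paics.1 copies, for a middle step, were higher in pancreas, and paics.1.S lost its call with the isolation as a block (adjusted p = 0.063). paics.1.L read 3844 and 3161 in pancreas and 493.5 and 862.7 in liver.

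Epithelial surface genes were found in the same way, after their values were seen. Of 20 listed genes, tetraspanins together with tm4sf1.L and tm4sf4.L of a separate family, 5 were higher in pancreas and 1 in liver. The shares over all genes were 3.28% and 3.98%. A negative difference was found for 8, and the gene higher in liver was tm4sf4.L. The tetraspanin gene cd37 was not in the list. It was higher in liver as both copies, at 6.21-fold for cd37.L (adjusted p = 0.0137) and 15.7-fold for cd37.S (adjusted p = 0.0277). The calls of tspan3.L and tspan3.S were lost with the isolation as a block (adjusted p = 0.0502 and 0.0526). Of 11 genes of duct fluid and bicarbonate transport, 4 were higher in pancreas and none in liver, and 4 had a negative difference. The lowest was slc26a6 at -1.22, with both liver arrays above both pancreas arrays (adjusted p = 0.105). tspan1.S, a tetraspanin of epithelial membranes, read 501.8 and 782.2 in pancreas and 18.39 and 11.45 in liver, 43.2-fold apart (adjusted p = 0.0127) and 20.9-fold with 16 added. cldn6.1.S, a tight junction claudin, read 1584 and 1574 in pancreas and 171.3 and 189.5 in liver, 8.76-fold apart (log2 3.13 ± 0.31, adjusted p = 0.0111). cftr.L, the chloride channel of pancreatic ducts, read 192.3 and 116.3 in pancreas and 18.8 and 31.19 in liver, 6.17-fold apart (adjusted p = 0.0311, and 0.0541 with the isolation as a block) and 4.1-fold with 16 added. Of 12 claudin and occludin genes and their junction partners, 4 were higher in pancreas and none in liver. tm4sf4.L ran the other way, with 388.2 and 117.1 in pancreas and 5577 and 5451 in liver, 25.9-fold higher in liver (adjusted p = 0.033). Its pancreas replicates differed more than 3-fold, and left-out arrays moved its fold by up to 1.82 times.

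Of 24 genes listed for stomach and intestine epithelium, 4 were higher in pancreas and none in liver, and 6 and 2 with an intensity trend. Over all genes the shares were 3.28% and 3.98%. The list is not purely epithelial, since it holds nkx2-3 of the gut mesoderm. anpep.L, an aminopeptidase of brush borders, read 982.1 and 803.1 in pancreas and 89.68 and 67.2 in liver, 11.4-fold apart (adjusted p = 0.0161). agr2.S, a disulfide isomerase of mucus-secreting cells, read 295.4 and 292.4 in pancreas and 17.59 and 46.6 in liver, 10.3-fold apart (adjusted p = 0.027), 6.76-fold with 16 added, 6.31-fold without liver replicate 1 and 16.7-fold without liver replicate 2. nkx2-3.S, a homeobox gene of gut mesoderm, read 48.8 and 69.33 in pancreas and 9.13 and 9.68 in liver, 6.19-fold apart (adjusted p = 0.015) and 2.93-fold with 16 added. The pancreas replicates of these 3 genes lay within a factor of 1.5, and nkx2-3.S was brighter on the isolation 2 array. The other copy, nkx2-3.L, was the brighter one, with a mean of 103 against 34.2, and its difference of 0.42 did not pass. The part of stomach and intestine tissue in these calls was not tested.

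Clotting genes had the largest share of members higher in liver among the 31 lists. Of 19 measured coagulation and fibrinolysis genes, 18 were higher in liver and none in pancreas, with a median log2 difference of -5.63. The exception was plat.L, tissue plasminogen activator, with a difference of 0.02 (adjusted p = 0.984). kng1.L, the kininogen gene, read 72.91 and 19.78 in pancreas and 6088 and 5245 in liver, 149-fold higher in liver (log2 -7.22 ± 0.62, adjusted p = 0.00912). Its fold was 286 without pancreas replicate 1 and 77.5 without pancreas replicate 2. fgb.L, a fibrinogen chain, read 51.12 and 6.62 in pancreas and 4375 and 3450 in liver, 211-fold higher in liver (adjusted p = 0.0172), 100-fold with 16 added, 587-fold without pancreas replicate 1 and 76-fold without pancreas replicate 2.

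Among the 18 clotting genes higher in liver, pancreas replicate 1 was above replicate 2 for 17, by a median of 3.17-fold over the 18, and the liver replicates differed by a median of 1.27-fold. The order alone is not particular to these genes. It also held for 67 of 70 ribosomal protein and 51 of 65 oxidative phosphorylation genes, but for 12 of 75 DNA replication and mitosis genes. The pancreas level of these genes had a median of 3.09% of the liver level in isolation 1 and 1.26% in isolation 2. On the 15 genes with the largest difference toward liver, which include clotting genes and others, the pancreas level of isolation 1 was 0.912% to 4.76% of the liver level, with a median of 2.11%, and that of isolation 2 was 0.0792% to 1.14%, with a median of 0.472%. Pancreas replicate 1 was above replicate 2 for all 15, by a median of 6.57-fold, whereas the liver replicates differed by a median of 1.16-fold. These 15 were chosen for their differences on the same arrays, the pancreas readings included. For the 9 plasma carriers higher in liver the median ratio of the pancreas replicates was 2.24, with replicate 1 above in 8. For the 11 complement genes higher in liver it was 1.35, with replicate 1 above in 8. For the 5 apolipoprotein and carrier genes higher in liver, the pancreas level had a median of 3.51% of liver in isolation 1 and 4.56% in isolation 2, and replicate 1 was the higher one in 3 of 5. In the other direction, the liver level of the 15 leading pancreas genes had a median of 0.381% in isolation 1 and 0.731% in isolation 2. The part of the plasma protein transcripts of pancreas replicate 1 in the folds was not tested. Without that array the same 18 clotting genes passed, and 14 of them passed without pancreas replicate 2, 8 without liver replicate 2 and 2 without liver replicate 1, where 105 probe sets passed in all.

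Complement genes, which encode the plasma cascade that marks and lyses microbes, were higher in liver in 11 of 18 cases, and all 18 read higher in liver on both arrays without overlap, as did 25.2% of all genes. c8a.L, part of the membrane attack complex, read 300.7 and 207.4 in pancreas and 7466 and 5859 in liver, 26.5-fold higher in liver (log2 -4.73 ± 0.42, adjusted p = 0.00949). c3.L, the central component, read 267.6 and 137.4 in pancreas and 6556 and 3615 in liver, 25.4-fold higher in liver (adjusted p = 0.0152). The fold was largest for cfb.L, factor B, with 73.35 and 33.35 in pancreas and 3479 and 3081 in liver, 66.2-fold higher in liver (adjusted p = 0.00726). The smallest differences of the list were those of c1qc.L, a subunit of the recognition molecule C1q, at -0.51 (adjusted p = 0.23), and clu.L, clusterin, at -0.52 (adjusted p = 0.396).

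Plasma carriers followed the same direction, with 9 of 17 higher in liver (14 with an intensity trend), none in pancreas and a median of -4.86. rbp4, the carrier of retinol in blood, shows how the replicates set the calls. rbp4.L read 1001 and 96.04 in pancreas and 14063 and 12018 in liver, and at 41.9-fold did not pass (adjusted p = 0.0601), with folds of 135 without pancreas replicate 1 and 13 without pancreas replicate 2. rbp4.S read 2231 and 1062 in pancreas and 13848 and 12649 in liver, and at 8.6-fold passed (adjusted p = 0.0206). The smaller difference, with the closer replicates, was the one that passed in the main fit. With an intensity trend rbp4.L passed too (adjusted p = 0.0107). ttr.L, which carries thyroid hormone, read 129.5 and 95.46 in pancreas and 7448 and 2614 in liver, 39.7-fold higher in liver (adjusted p = 0.0124), with 67-fold without liver replicate 2 and 23.5-fold without liver replicate 1.

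Of 11 apolipoprotein and fatty acid carrier genes, 5 were higher in liver and 1 in pancreas, and 6 and 3 with an intensity trend. Both liver arrays were above both pancreas arrays for 6 of the 11 and the reverse held for 5, against 25.2% and 33.2% of all genes. apoe.L, a ligand for lipoprotein uptake, read 191.7 and 148.9 in pancreas and 5512 and 6126 in liver, 34.4-fold higher in liver (log2 -5.1 ± 0.24, adjusted p = 0.00351). apob.S, the scaffold of large lipoproteins, read 134.3 and 97.83 in pancreas and 3824 and 3591 in liver, 32.3-fold higher in liver (adjusted p = 0.00351). apoa1, the main protein of high-density lipoprotein, was higher in liver as both copies, at 27.3-fold for apoa1.L and 19.7-fold for apoa1.S. fabp3.S, a fatty acid binding protein inside cells, read 452.3 and 406 in pancreas and 25.24 and 36.32 in liver, 14.2-fold higher in pancreas (log2 3.82 ± 0.31, adjusted p = 0.00799).

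**Figure D3:**
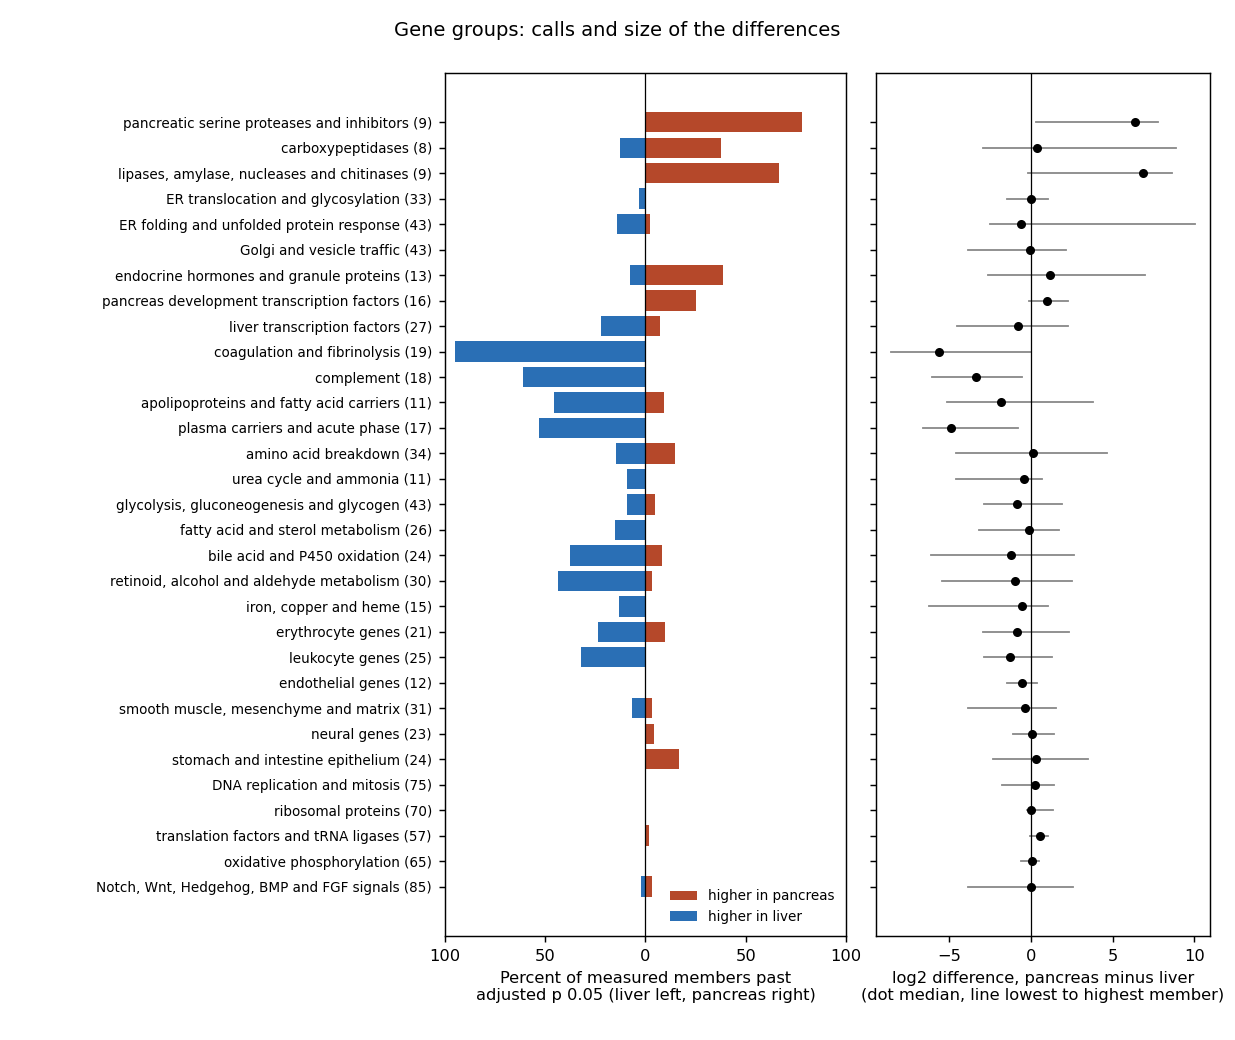
For 31 gene groups, with the number of measured genes in brackets, the left panel shows the percent of members past the threshold in each direction and the right panel the median log2 difference with the lowest and highest member. The coagulation bar reaches 18 of 19 genes, while the ribosomal protein, oxidative phosphorylation and DNA replication groups have no bar.

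Of 24 bile acid and cytochrome P450 genes, 9 were higher in liver and 2 in pancreas, against 3.98% and 3.28% of all genes. ugt1a6.S, which attaches glucuronic acid to foreign compounds, read 62.17 and 34.99 in pancreas and 3311 and 3077 in liver, 68.4-fold higher in liver (log2 -6.1 ± 0.39, adjusted p = 0.00539). akr1d1.L, a reductase of bile acid synthesis, read 45.83 and 22.15 in pancreas and 2283 and 1607 in liver, 60.1-fold higher in liver (adjusted p = 0.00927) and 39.8-fold with 16 added. The genes of the list that were higher in pancreas were slc27a2.L, which activates fatty acids, at 6.28-fold (adjusted p = 0.00913), and sult2b1.S, a sterol sulfotransferase, at 3.37-fold (adjusted p = 0.0235).

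Retinoic acid, made from retinol by dehydrogenases and removed by cyp26 enzymes, patterns the foregut. Of 30 retinoid, alcohol and aldehyde genes, 13 were higher in liver and 1 in pancreas, against 3.98% and 3.28% of all genes. The median was -0.96. aldh1a1.S, which can oxidise retinal to retinoic acid, read 22.17 and 20.77 in pancreas and 745 and 377.9 in liver, 24.7-fold higher in liver (adjusted p = 0.0104) and 14.6-fold with 16 added, and aldh1a1.L was 5.49-fold higher. cyp26a1.L, which degrades retinoic acid, was in the same direction, with 8.89 and 5.53 in pancreas and 131.8 and 153.5 in liver, 20.3-fold higher in liver (adjusted p = 0.00959) and 6.84-fold with 16 added. The gene higher in pancreas was crabp2.L, which carries retinoic acid to the nucleus. It read 375.2 and 229.4 in pancreas and 48.06 and 51.99 in liver, 5.87-fold apart (log2 2.55 ± 0.33, adjusted p = 0.0197). Of the aldehyde enzymes, aldh3a2.L, which oxidises fatty aldehydes, was 15.8-fold higher in liver (adjusted p = 0.0063), while another of its probe sets, at -2.29, did not pass.

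Genes noticed among the liver leaders included the pterin and peroxidase enzymes, again listed after their values were seen. Of 11 such genes 4 were higher in liver, against 3.98% of all genes, and none in pancreas. The genes gpx1.L and gpx1.S had positive differences of 0.8 and 1.12 that did not pass. qdpr.L, which regenerates the pterin cofactor of phenylalanine hydroxylase, read 329.7 and 192.7 in pancreas and 5576 and 5397 in liver, 21.8-fold higher in liver (adjusted p = 0.0107). pts.L, an enzyme of pterin synthesis, read 50.26 and 53.8 in pancreas and 1137 and 919.2 in liver, 19.7-fold higher in liver (log2 -4.3 ± 0.28, adjusted p = 0.00553). gpx3, the glutathione peroxidase of plasma, was higher in liver as both copies, at 21.7-fold for gpx3.L and 26.1-fold for gpx3.S. Of 12 prostaglandin and eicosanoid genes, also listed afterwards, 3 were higher in liver and none in pancreas. ptgds-b, named for prostaglandin D synthase, read 115 and 16.3 in pancreas and 9174 and 3466 in liver, 130-fold higher in liver (adjusted p = 0.0247), with 346-fold without pancreas replicate 1, 49.1-fold without pancreas replicate 2, 80.1-fold without liver replicate 1 and 212-fold without liver replicate 2.

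Of 43 genes of glycolysis, gluconeogenesis and glycogen, 4 were higher in liver and 2 in pancreas, against 3.98% and 3.28% of all genes. With an intensity trend 11 and 4 passed. The median of the list was -0.86, and 32 of the 43 genes had a negative difference. pkm.L, the pyruvate kinase form of most embryonic and adult tissues, read 882.7 and 1102 in pancreas and 350.3 and 365.9 in liver, 2.75-fold higher in pancreas (adjusted p = 0.0406, and 0.0715 after quantile normalization). slc37a4.L, which brings glucose 6-phosphate into the endoplasmic reticulum for glucose release, read 374.2 and 254.8 in pancreas and 2510 and 1357 in liver, 5.98-fold higher in liver (adjusted p = 0.0269). ldha.S, a lactate dehydrogenase subunit, was 7.09-fold higher in liver (log2 -2.83 ± 0.33, adjusted p = 0.0152). pc.1.L, pyruvate carboxylase, was 4.01-fold higher in liver (adjusted p = 0.0447), although another of its probe sets differed by -0.34 and did not pass. Of 26 fatty acid and sterol genes, 4 were higher in liver and none in pancreas (9 and 2 with an intensity trend). The largest fold was that of cyp51a1.L, at 8.97 (adjusted p = 0.0406) and 4.98 with 16 added. acox2.L, an oxidase of bile acid side chains, was 6.45-fold higher in liver (adjusted p = 0.0104) and 5.74-fold with 16 added.

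Hormone and nuclear receptors among the liver leaders, listed after their values were seen, included gcgr.L, the glucagon receptor. Of the 12 genes of that list 6 were higher in liver, against 3.98% of all genes, and none in pancreas. These 6 include igf3.L and shbg.S, which encode secreted proteins and not receptors. A positive difference was found for 3 genes, esr1.L, ghr.L and igf1r.S, and none of them passed. The receptor genes insr.L and thra.L had negative differences that did not pass. gcgr.L read 6.95 and 24.66 in pancreas and 276.8 and 251.5 in liver, 20.2-fold higher in liver (adjusted p = 0.0237) and 9.16-fold with 16 added. Leaving out an array moved that fold by up to 1.89 times. igf3.L, an insulin-like growth factor gene, read 10.39 and 10.37 in pancreas and 336.2 and 247.1 in liver, 27.8-fold higher in liver (log2 -4.8 ± 0.23, adjusted p = 0.00351) and 11.5-fold with 16 added. nr1h5, a bile acid receptor relative, was higher in liver as both copies, and nr1h5.S read 28.58 and 31.66 in pancreas and 551.5 and 538.2 in liver, 18.1-fold apart (adjusted p = 0.00474).

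Transcription factors of pancreas development leaned to pancreas with modest folds. Of 16 measured genes, 4 were higher in pancreas and none in liver, 15 had a positive difference, and the median was 1. With an intensity trend 8 passed. nr5a2.L, a nuclear receptor of acinar and liver cells, read 554 and 519.3 in pancreas and 132.6 and 93.81 in liver, 4.81-fold apart (log2 2.27 ± 0.24, adjusted p = 0.0127), while another of its probe sets differed by 0.14 and did not pass. insm1.L, a zinc finger factor of endocrine cells, read 152.3 and 184.1 in pancreas and 48.33 and 44.75 in liver, 3.6-fold apart (log2 1.85 ± 0.20, adjusted p = 0.0133). gata6.S, a factor shared by foregut organs, read 585.1 and 638 in pancreas and 219.3 and 184.1 in liver, 3.04-fold apart (log2 1.6 ± 0.20, adjusted p = 0.0179). mnx1.S, needed for the dorsal bud in the mouse, was dim, with 32.02 and 28.66 in pancreas and 8.37 and 4.68 in liver, 4.84-fold apart and 2.06-fold with 16 added (adjusted p = 0.0456, 0.0736 with the isolation as a block and 0.0518 after quantile normalization). Among the factors that did not pass, neurod1.L differed by 1.2 (95% interval 0.58 to 1.82, adjusted p = 0.0575, and 0.0214 with an intensity trend), sox9.S, a duct and progenitor factor, by 1.44 (0.3 to 2.58) and pax6.L by 0.8 (-0.32 to 1.91). The 6 probe sets of pax6.L disagreed in sign, and 1 of them passed toward pancreas.

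Liver transcription factors were divided, with 6 of 27 higher in liver and 2 in pancreas, which were the shared genes gata6.S and nr5a2.L, and with an intensity trend 10 and 4 passed. hnf4a.S, a nuclear receptor that sustains hepatocyte genes, read 235.4 and 121.8 in pancreas and 858.9 and 882 in liver, 5.14-fold higher in liver (log2 -2.36 ± 0.37, adjusted p = 0.0313). Another of its probe sets differed by -1.97 and did not pass (adjusted p = 0.0631). hhex.L, a homeobox gene required for the liver bud, read 14.18 and 2.37 in pancreas and 119.9 and 139.1 in liver. Its fold of 22.3 (adjusted p = 0.0467, 0.0563 with the isolation as a block and 0.0583 after quantile normalization) was 6.16 with 16 added, 54.5 without pancreas replicate 1 and 9.11 without pancreas replicate 2. tbx3, a T-box gene of the liver bud, was higher in liver as both copies, at 3.15-fold for tbx3.L (adjusted p = 0.0284) and 3.3-fold for tbx3.S (adjusted p = 0.0301). The nuclear receptors nr2f1.L and nr2f2.L were 2.4-fold and 2.41-fold higher in liver, and the call of nr2f2.L was lost after quantile normalization (adjusted p = 0.0708).

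Other liver factors were not separated by the test. For cebpa, a factor of hepatocyte maturation, neither copy passed. Its L copy, with both liver arrays above both pancreas arrays, differed by -0.41 (95% interval -0.92 to 0.09) and its S copy by 0.42 (-0.4 to 1.25). prox1.L, expressed in both buds in other vertebrates, differed by -0.73 (-1.73 to 0.28), and foxa1.S, a pioneer factor of endoderm, by -1.15 (-1.83 to -0.46, adjusted p = 0.0769, 0.045 with the isolation as a block and 0.0147 with an intensity trend).

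**Figure D4:**
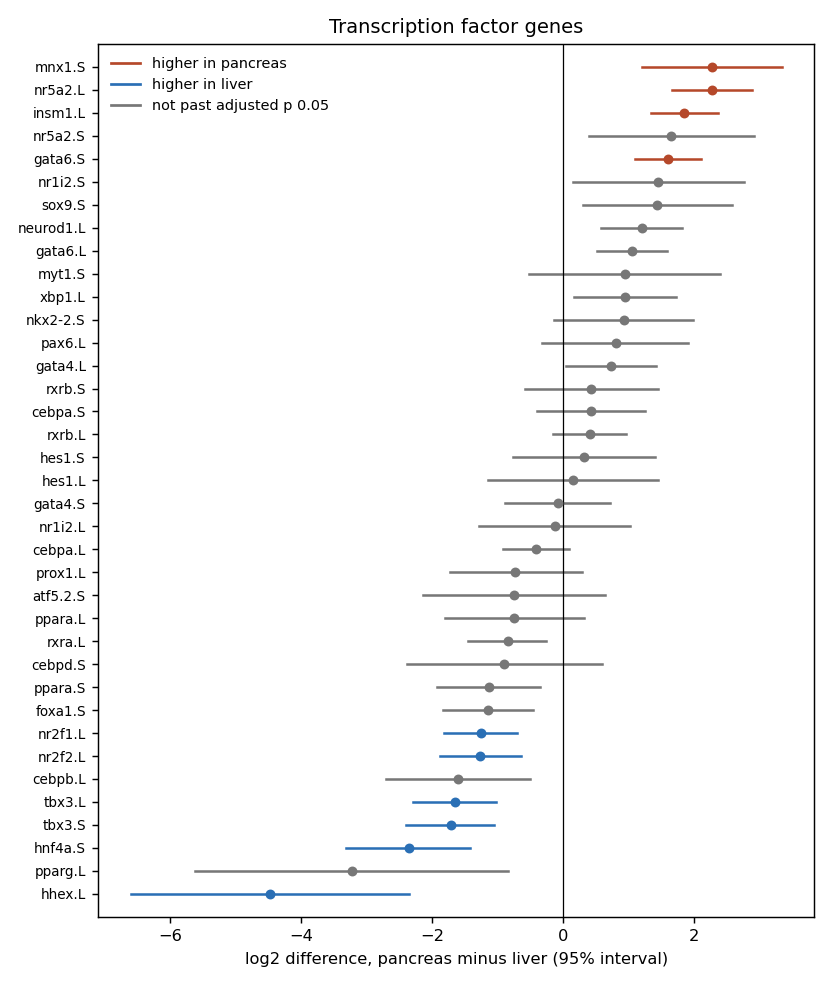
The log2 difference of pancreas minus liver with its 95% interval for every measured member of the lists of pancreas and liver transcription factors, in red where higher in pancreas, blue where higher in liver and grey where not past the threshold. The points run from mnx1.S at 2.28 to hhex.L at -4.48, and most intervals span more than a 2-fold range.

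Of 85 measured genes of the Notch, Wnt, Hedgehog, BMP and FGF pathways, 3 were higher in pancreas and 2 in liver, near the background of 3.28% and 3.98%, and the median was 0.02. shh.L, the Hedgehog ligand whose absence marks the pancreas domain of the gut in chick and mouse, read 14.1 and 11.15 in pancreas and 133 and 240.6 in liver, 14.3-fold higher in liver (log2 -3.83 ± 0.35, adjusted p = 0.01) and 6.84-fold with 16 added. notch1.S, a receptor that holds progenitors undifferentiated, read 141.4 and 120.8 in pancreas and 19.28 and 25.26 in liver, 5.92-fold higher in pancreas (adjusted p = 0.0137) and 3.85-fold with 16 added. fzd10.S, a Wnt receptor, read 228.6 and 244.6 in pancreas and 44.07 and 67.34 in liver, 4.34-fold higher in pancreas (adjusted p = 0.0211). id2.S, an inhibitor of helix-loop-helix factors, read 558.5 and 570.2 in pancreas and 194.8 and 183 in liver, 2.99-fold higher in pancreas (log2 1.58 ± 0.18, adjusted p = 0.0144). bmpr1a.S, a BMP receptor, was the other gene higher in liver, at readings of 31 or lower on all 4 arrays. Its call was lost after quantile normalization (adjusted p = 0.0533). The other copies id2.L, fzd10.L and bmpr1a.L had differences of -0.17, -0.08 and -0.3 and did not pass. Of these, id2.L and bmpr1a.L were brighter than the copies that passed, at 1350 or higher and 184.3 or higher on all 4 arrays. With an intensity trend in the variance 5 genes of the list passed in each direction, in a fit where 1050 of all 15491 probe sets passed toward pancreas and 963 toward liver.

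Blood cells were not separated from the buds. The leukocyte list had 8 of its 25 genes higher in liver, against 3.98% of all genes, none in pancreas and a median of -1.27. mpo.L, the myeloperoxidase of granulocytes, read 144 and 86.57 in pancreas and 1032 and 613.5 in liver, 7.13-fold higher in liver (log2 -2.83 ± 0.43, adjusted p = 0.0297). prtn3.S, a protease of the same granules, was 6.87-fold higher (adjusted p = 0.0233) and csf3r.L, the receptor for the granulocyte growth factor, 5.9-fold higher (adjusted p = 0.0149). ptprc.L, a marker of all leukocytes, was dim on the 4 arrays, between 12.75 and 40.91, and did not differ beyond its spread (adjusted p = 0.966).

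Globins were abundant in both organs. Of 21 erythrocyte genes, 5 were higher in liver and 2 in pancreas, against 3.98% and 3.28% of all genes. With an intensity trend 9 and 3 passed. After quantile normalization 3 of the globins passed in liver. hbd.S read 6633 and 5935 in pancreas and 18988 and 17215 in liver, 2.88-fold higher in liver (log2 -1.53 ± 0.20, adjusted p = 0.0197), and hba2.L read 2467 and 2213 in pancreas and 11343 and 10324 in liver, 4.63-fold higher (adjusted p = 0.0109). All 5 genes higher in liver were globins. The genes of the list that were higher in pancreas were not globins. ca2.S, a carbonic anhydrase that is also an enzyme of pancreatic ducts, read 2045 and 1643 in pancreas and 489.1 and 258.5 in liver, 5.15-fold apart (adjusted p = 0.0424), and bpgm.S, which makes the regulator of oxygen release, was 3.61-fold higher (adjusted p = 0.0385, and 0.0596 with the isolation as a block).

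Calls among vessel, muscle and nerve genes were few, near the 3.98% of all genes higher in liver and 3.28% higher in pancreas. None of 12 endothelial genes passed in either direction, with a median of -0.54, and 2 of them passed with 16 added. Both liver arrays were above both pancreas arrays for 8 of the 12, against 25.2% of all genes, and the reverse held for none. Of 31 smooth muscle, mesenchyme and matrix genes, 2 were higher in liver and 1 in pancreas, and 6 and 2 with an intensity trend. sparc showed the copies apart, with sparc.L at 1176 and 1273 in pancreas and 544.4 and 521.5 in liver, 2.3-fold higher in pancreas (adjusted p = 0.0337), and sparc.S at -0.51 (adjusted p = 0.185). Of 23 neural genes the 1 that passed was scg2.L, a granin that endocrine cells share, and it did not pass with an intensity trend (adjusted p = 0.0612).

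Genes of endoplasmic reticulum folding leaned to liver, although pdia2.L belongs to the same list. Of 43 genes, 39 had a negative difference, against 7180 of all 15491 probe sets, and 40 were negative under quantile normalization. In the list 6 were higher in liver and 1 in pancreas, against 3.98% and 3.28% of all genes. The median was -0.59. With an intensity trend in the variance 17 were higher in liver and 2 in pancreas. txndc5.L, a disulfide isomerase, read 387.8 and 302.5 in pancreas and 1692 and 1584 in liver, 4.78-fold higher in liver (log2 -2.26 ± 0.24, adjusted p = 0.0127). pdia4.L, another, read 409.9 and 284.6 in pancreas and 1925 and 1836 in liver, 5.5-fold higher in liver (adjusted p = 0.0128). calr.L, the calcium-binding chaperone calreticulin, read 2147 and 1391 in pancreas and 7921 and 6064 in liver, 4.01-fold higher in liver (adjusted p = 0.0303). xbp1.L, a transcription factor that expands the secretory apparatus, read 2614 and 2115 in pancreas and 1353 and 1109 in liver without overlap, but its difference of 0.94 did not pass (adjusted p = 0.147, and 0.0476 with an intensity trend). The lists of translocation and glycosylation genes (33 genes, median 0.02) and of Golgi and vesicle traffic genes (43 genes, median -0.04) held 1 call, for ostc.S toward liver. With an intensity trend, 3 translocation and glycosylation genes passed toward pancreas and 2 toward liver, and 1 and 3 traffic genes. Under quantile normalization their medians were 0 and -0.09.

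Translation factors and tRNA ligases showed a small shift toward pancreas. Of 57 genes, 54 had a positive difference, 48 had both pancreas arrays above both liver arrays against 33.2% of all genes, and the median was 0.55. A single gene passed, qars1.L, the glutaminyl-tRNA ligase, with 640.7 and 607.8 in pancreas and 313.8 and 299.9 in liver, 2.03-fold apart (adjusted p = 0.0442, 0.0523 with the isolation as a block and 0.0535 after quantile normalization). With an intensity trend in the variance 21 passed, and all 21 were higher in pancreas. The median stayed between 0.48 and 0.58 with any 1 pancreas or liver array left out. The 3 genes with a negative difference were eef1a1.S at -0.05, eef2.1.L at -0.03 and eif5a.L at -0.06.

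None of 75 DNA replication and mitosis genes passed the threshold. Of these genes 64 had a positive difference, and the median was 0.29 against 0.07 over all genes. Both pancreas arrays were above both liver arrays for 35 of them and the reverse held for 5, against 33.2% and 25.2% of all genes. By the fit with an intensity trend, 4 of them were higher in pancreas. pcna.L, the replication clamp, read 1277 and 1402 in pancreas and 1115 and 1237 in liver. Its difference was 0.19 (95% interval -0.3 to 0.68). Pancreas replicate 1 read above replicate 2 for 12 of the 75 genes.

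None of 70 ribosomal protein genes passed, their median was 0.02, and 37 were positive, a number that became 53 under quantile normalization. rps3.S read 7059 and 7074 in pancreas and 7812 and 7811 in liver, a difference of -0.14 (95% interval -0.6 to 0.31). None of 65 oxidative phosphorylation genes passed, with a median of 0.11. sdhb.S, a subunit of succinate dehydrogenase, read 947.9 and 958.1 in pancreas and 920.8 and 939.5 in liver, a difference of 0.04 (-0.42 to 0.49). In all, 307 of the 917 listed genes had an interval within a 2-fold change either way, and among the narrowest were ccnd2.L, a cyclin, at 0 (-0.45 to 0.46), rpl31.S at -0.07 (-0.53 to 0.39) and ssr3.S, of the translocon, at 0.07 (-0.39 to 0.52).

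The L and S copies offered a second reading of many differences. Both copies were measured for 1017 genes, and their log2 differences correlated at 0.635 over all of these genes and at 0.815 over the 577 with both means above 100. A probe set may bind both copies, so the readings are not fully independent. Both copies were higher in pancreas for 14 genes and both higher in liver for 14, and no gene had copies called in opposite directions in the main fit. In 112 genes a single copy passed, and in 87 of them the other copy had the same sign.

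Among the pairs higher in pancreas as both copies were genes of growth that no list above contains, named here after their values were seen. myc.S, a transcription factor that drives ribosome and nucleotide synthesis, read 2843 and 2608 in pancreas and 930.6 and 1012 in liver, 2.81-fold apart (log2 1.49 ± 0.18, adjusted p = 0.018), and myc.L was 2.66-fold higher (adjusted p = 0.0321). mdk.L, the heparin-binding growth factor midkine, read 4042 and 3680 in pancreas and 911.7 and 1002 in liver, 4.03-fold apart (adjusted p = 0.0104), and mdk.S was 4.37-fold higher (adjusted p = 0.0117). The kinase gene pim3 was 3.13-fold higher as pim3.L and 3.03-fold as pim3.S. For 14 of the 28 pairs the copies differed by less than 0.5 on the log2 scale, and the largest gap was 2.36, for cpa1.

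Some copies parted. hmox1.S, heme oxygenase, read 60.35 and 63.07 in pancreas and 187.9 and 157.5 in liver, 2.79-fold higher in liver (adjusted p = 0.0495, and 0.0524 with the isolation as a block). hmox1.L read 480.5 and 522.3 in pancreas and 256 and 235.7 in liver, a difference of 1.03 that did not pass (adjusted p = 0.111). With an intensity trend hmox1.L passed toward pancreas (adjusted p = 0.0342) and hmox1.S kept its call toward liver. ldhb.L, the other lactate dehydrogenase subunit, was 3.14-fold higher in liver (adjusted p = 0.0372), while ldhb.S had a difference of 1.08 (adjusted p = 0.182). agr2.L, unlike agr2.S, was at 25.72 or lower on all 4 arrays. The difference between copies was not itself tested.

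**Figure D5:**
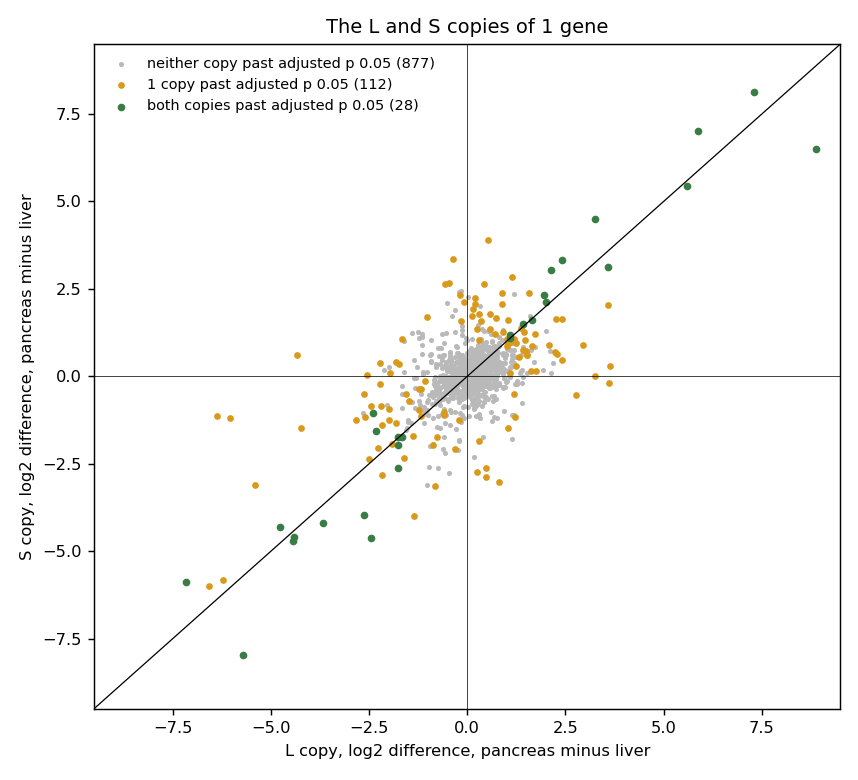
The log2 difference of pancreas minus liver for the L copy on the horizontal axis and the S copy on the vertical axis for 1017 genes, with the line of equal differences. The 28 genes with both copies past the threshold (green) lie in the upper right and lower left parts, and genes with 1 copy past it (orange) scatter more widely.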

How the data were processed

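Intensities of 15611 probe sets on 6 arrays were deposited by the authors as a single table. Per the submitters' processing notes RMA was used, with no version given. The intensity values are linear, and each array has a median of 100 over all rows. No probe set was missing or imputed. The 120 control rows were left out. No column went unused.

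Values were taken to log2 and fitted with limma 3.58.1 in R 4.3.3 as organ means over the 6 arrays. The fit had 3 residual degrees of freedom plus 2.14 from the prior, and a median residual SD of 0.287. The pancreas minus liver contrast was adjusted by Benjamini-Hochberg over 15491 probe sets, with a threshold of 0.05. The model was tested on simulated data. Intervals are 95%.

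Platform annotation gave 5992 probe sets no symbol and 195 several, and none of these is named. Of those with 1 symbol, 9227 were found in RefSeq by gene identifier and 2 symbols were updated.

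The numbers of the labels mark isolations shared by the organs. Deviations of same-numbered arrays from their organ means correlated at 0.173 for pancreas and liver, 0.197 for pancreas and stomach and 0.152 for liver and stomach, and at 0.431, 0.421 and 0.4 over probe sets with a mean over 100. The main fit has no such block, and a fit with it was an alternative. Others were 16 added before log2, quantile normalization, a filter on dim probe sets, an intensity trend, the 4 pancreas and liver arrays alone, each array left out, and the design text's rule.

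Genes named are, in each direction, the 15 with the largest difference of mean log2(intensity + 16) among those past the threshold with arrays that do not overlap. To these come up to 5 such members of each of 31 lists a direction, the 2 brightest of lists without a call, all listed transcription factors, 10 members of narrowest interval within a 2-fold change, and the other copies of these genes. Others are marker genes, the ends of a list, and genes said to be named after their values were seen. Lists and rules were written with earlier results of these data known.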

Additional observations from a re-analysis of the deposited data

How the results depend on the processing

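Of 15491 probe sets, 969 passed in the fit reported, 419 higher in pancreas and 550 in liver. With 16 added to each intensity 1720 passed (837 and 883), without dim probe sets 1932 of 9295 (1020 and 912), and with an intensity trend in the variance 2013 (1050 and 963). Calls fell to 552 (213 and 339) with the pancreas and liver arrays alone, a fit with fewer residual degrees of freedom. Leaving out each array in turn gave 105 to 552 calls, 50 to 213 higher in pancreas and 55 to 339 higher in liver, again with fewer samples. A lone stomach array adds nothing to the spread, so leaving out either gives the same 552. Of probe sets called higher in pancreas, 264 were over 3-fold within isolation 1 and 257 within isolation 2. Of those called higher in liver, the numbers were 427 and 408. With the replicate block for isolation 1055 passed (442 and 613). Of 126 named genes that passed by the rule, the block ended the call of 8, quantile normalization of 9, the 4 arrays alone of 47 and the trend of 1. Beside the calls given with their genes, the block ended that of aldoa.S (adjusted p = 0.06) and made those of ca2.L (0.0454), qars1.S (0.0453) and tf.S (0.0257), and it changed no other call of a gene named by the rule. Quantile normalization also ended those of aldoa.S (0.0525), hba4.S (0.0714) and hba-l5.L (0.0587). It made those of ca2.L (0.0353), gata6.L (0.0442) and qars1.S (0.0479). The trend made calls of ca2.L, calr.S, cebpb.L, foxa1.S, gata6.L, hmox1.L, neurod1.L, nr5a2.S, pkm.S, ppara.S, pparg.L, qars1.S, rbp4.L, serpina1.S, ssr3.L, tf.S and xbp1.L. Leaving out a pancreas or liver array ended 69 to 101 of the 126. No named gene that passed changed direction under the settings run. The number of arrays limits the precision, and with no background reading in the table how far dim readings lie above it is unknown. The cause of the other shifts was not tested.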
